A study of Mus musculus with 12 samples.

Results

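β-thalassemic (thal) and wild type (WT) pro-erythroblasts (Pro-E) were compared after both had received apotransferrin (apoTf). The comparison rests on 6 of the 12 libraries, 3 from apoTf-treated thal mice and 3 from apoTf-treated WT mice, chosen by library title. Of the 24453 genes in the table, 9361 reached 1 FPKM in 3 or more of these 6 libraries and were tested. Thal mice were Hbb th1/th1, lacking 1 of the adult β-globin genes on both chromosomes, and WT mice were C57BL6. The thal mice were on a mixed background per the methods, so that the deletion, the chromosome around it and the strain background cannot be told apart here. Every mouse received 10 mg of human apoTf per intraperitoneal injection, 400 mg/kg per day in the labels, for 20 days, and Pro-E were sorted from bone marrow 3 days after the last injection. The labels give C57BL6 as strain and 5 months as age for every library, while the methods give 3–4 months. RNA of 2–3 mice was pooled in each library and enriched for polyadenylated RNA. A further 6 libraries, 3 thal and 3 WT from mice injected with PBS, hold the same genotype contrast without apoTf and share no library with it. For every library the labels also describe the removal of 0.4 mL of blood, and it is unknown if these mice underwent it. The genotype tag of each library contradicts its title. The level of the deleted gene, given below, goes with the titles.

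Pro-E are the earliest precursors of terminal erythropoiesis that can be told from their shape, and they have only begun to make globin. In β-thalassemia too little β-globin is made, unpaired α-globin precipitates, and precursors die before they enucleate, while erythropoietin and erythroferrone rise in response. ApoTf is transferrin without iron, and its injection in thal mice lowers the iron that each erythroid precursor takes up. A comparison of the genotypes under the same apoTf treatment asks what separates thal from WT Pro-E once both are treated.

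The 6 libraries held 40.7 to 52.1 M reads, as read from the steps that single reads make in the FPKM of short genes. Their values correlated across genes with a Spearman correlation of 0.984 to 0.995 within a group and 0.982 to 0.994 between groups, and genes are not independent replicates. Markers of the labelled cell type were high in all 6, with Gata1 at 89.1 to 95.2 FPKM and Tfrc at 370 to 455 FPKM, and Xist stayed at or under 0.137 FPKM. The summed level of 15 granulocyte markers was 2.04 to 12.5 FPKM in thal and 2.94 to 52.7 FPKM in WT libraries. B cell markers summed to at most 0.195 FPKM and endothelial and stromal markers to at most 1.22 FPKM in any of the 6. The slope of a library on transcript GC content, as log2 per 10 percentage points, was −0.10 to −0.05 in thal and −0.20 to −0.12 in WT libraries. The groups therefore do not overlap in GC trend, and counts are given with and without it.

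The adult β-globin locus on chromosome 7 holds a pair of genes in the reference genome, and the promoters of both are shown because one of them carries the largest difference of the comparison. The 120 bases before each start site run 5′ to 3′ on the minus strand, from RefSeq on GRCm38.p6, with the Hbb-bs sequence at chr7:103827929-103828048 and the Hbb-bt sequence at chr7:103813924-103814043. Capitals mark 3 motifs searched on both strands and capitalised on the strand shown, the CACCC box as ACACCC, the CCAAT box as CCAAT and the TATA box as ATATAA.
Hbb-bs: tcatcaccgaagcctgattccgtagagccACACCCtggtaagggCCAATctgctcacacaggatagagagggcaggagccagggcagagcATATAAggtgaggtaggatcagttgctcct
Hbb-bt: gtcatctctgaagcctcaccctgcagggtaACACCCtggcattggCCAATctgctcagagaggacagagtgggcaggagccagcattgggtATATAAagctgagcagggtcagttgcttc
The CACCC box begins 91 bases before the start in Hbb-bs and 90 in Hbb-bt, the CCAAT box 76 and 75, and the TATA box 30 and 29. Of 32851 promoters in the table, 7.06% held ACACCC in the same window, 21.3% CCAAT, 4.47% ATATAA and 0.125% all 3. These are matches of letters in the reference and no measurement of binding.

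Hbb-bs, which encodes an adult β-globin chain (chromosome 7, 103826534 to 103828096, GRCm38), was lower in every apoTf-treated thal library than in any WT library. It stood at 95.8, 175 and 201 FPKM in thal replicates 1 to 3 and at 1091, 3229 and 2154 FPKM in WT replicates 1 to 3. The WT mean was 13.7 times the thal mean, with a log2 difference (thal minus WT, here and throughout, on the scale of log2 of FPKM plus 0.5) of −3.71 (SE 0.40, adjusted p = 0.0279 from limma). The symbol Hbb-b1 had values within 1.88% of Hbb-bs in all 12 libraries and was read as the same locus. Where the remaining signal in thal libraries comes from was not tested. Reads that match more than 1 place were dropped by the authors, so levels of near-identical globin genes are uncertain.

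The other adult β-globin gene, Hbb-bt, was at 537, 1037 and 1065 FPKM in thal and at 391, 921 and 721 FPKM in WT libraries. Its groups overlapped and it did not pass (log2 difference 0.40, 95% confidence interval −0.42 to 1.22, adjusted p = 1.00 from limma). Hba-a1, an α-globin gene, was at 278, 470 and 505 FPKM in thal and at 159, 449 and 369 FPKM in WT libraries, and did not pass either (log2 difference 0.44, 95% confidence interval −0.44 to 1.32). For both genes replicate 1 was the lowest of each group, and the thal library was the higher of its pair in 3 of 3 pairs by replicate number.

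Ratios within a library take out a scale that its globin genes share, but not a shift in the balance between them. The signal listed under Hbb-bs stood at 0.178, 0.169 and 0.188 times Hbb-bt in thal and at 2.79, 3.51 and 2.99 times in WT libraries. It was 15.2% ± 0.697 (SD, n = 3) of adult β-globin FPKM in thal and 75.4% ± 2.15 in WT. The source of this signal in thal libraries, which also enters the next ratio, was not tested. The ratio of Hba-a1 to the sum of Hbb-bs and Hbb-bt was 0.439, 0.387 and 0.399 in thal and 0.107, 0.108 and 0.129 in WT libraries. The mean ratio in thal was 3.56 times that in WT, and the groups did not overlap (exact permutation test, two-sided, p = 0.1, the smallest that 3 against 3 allow). The ratio of Hbb-bt to Hba-a1 was 2.08 ± 0.139 in thal and 2.15 ± 0.270 in WT libraries and differed by less than the spread between replicates (exact permutation p = 0.8). After PBS the α to β ratio was 0.309 to 0.509 in thal and 0.152 to 0.614 in WT libraries, and the 0.614 was that of PBS WT replicate 1, which stands apart from all other libraries.

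**Figure D1:**
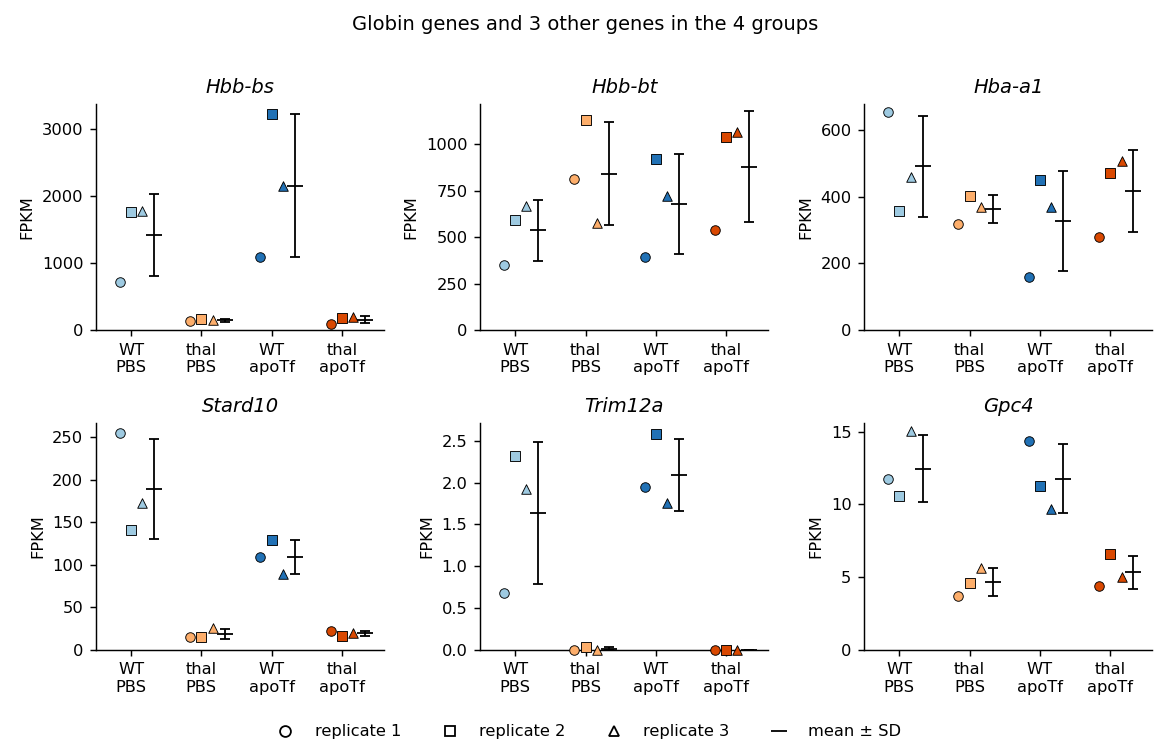
FPKM of each library in the 4 groups for 3 globin genes and 3 other genes lower in thal after apoTf, of which Gpc4 passed only with the replicate block; marker shape gives the replicate number, and bars give the mean ± SD of 3 libraries. After apoTf, thal and WT libraries do not overlap in Hbb-bs, Stard10, Trim12a and Gpc4, and overlap in Hbb-bt and Hba-a1.

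The embryonic globin genes, and Hbb-bh2 of the same locus, lay under 1 FPKM and were not among the genes tested. Hbb-bh1 was at 0.499, 0.457 and 0.212 FPKM in thal and at 0.041, 0.032 and 0.035 FPKM in WT libraries. Hbb-y was at 0.492, 0.485 and 0.384 FPKM in thal and at 0.16, 0.125 and 0.138 FPKM in WT libraries. Hbb-bh2 was at 0.168, 0.345 and 0.348 FPKM in thal and at 0, 0 and 0.038 FPKM in WT libraries. In all 3, which lie beside Hbb-bs, every thal library was above every WT library (exact permutation p = 0.1 each), and none had an adjusted p under 0.05 when all genes were tested without the filter. The embryonic α-like gene Hba-x overlapped between groups, at 0.29 to 0.51 FPKM in thal and 0.29 to 0.57 FPKM in WT libraries.

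Across all genes 5 of 9361 (0.0534%) passed an adjusted p of 0.05 in limma, or 4 loci with Hbb-b1 and Hbb-bs as 1. All were lower in thal Pro-E, and 3 of the loci are described here. No gene passed in the other direction, although 444 of the 549 genes with an unadjusted p under 0.05 were higher in thal. At an unadjusted 0.05, 5.86% of genes were called.

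Stard10, which encodes a lipid transfer protein (chromosome 7, 101317086 to 101346626), was at 22.2, 16.2 and 19.9 FPKM in thal and at 109, 129 and 88.8 FPKM in WT libraries. The groups lay far apart, with a WT mean 5.6 times the thal mean (log2 difference −2.45, SE 0.16, adjusted p = 0.00128). It passed under all 20 alternative settings. Trim12a, a tripartite motif gene next to the β-globin locus (chromosome 7, 104299894 to 104315466), was listed at 0 in all 3 thal libraries and at 1.95, 2.58 and 1.75 FPKM in WT libraries (adjusted p = 0.00128). Its log2 difference of −2.36 depends on the added 0.5. Trim12a met the filter through the WT libraries alone, and its 3 thal values of 0 carry no spread. It passed in all 19 alternatives that kept it among the genes tested, which for that reason is no further support.

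The adjusted p of Hbb-bs was over 0.05 without thal replicate 1 or 2 or WT replicate 2 or 3, and its call was kept in 13 of 20 alternatives. Its log2 difference stayed between −4.13 and −3.35 with each library left out in turn.

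Same-numbered apoTf libraries deviated together, and with replicate number as a block 243 genes (2.60%) passed, all 5 of those genes among them. Of these, 215 (2.30%) were higher and 28 (0.299%) lower in thal Pro-E. The count depended on single pairs. It was 128 without pair 1, 396 without pair 2 and 121 without pair 3. With the trend on GC content removed as well, 101 genes (1.08%) passed, 78 higher and 23 lower. The genes that passed higher had a median transcript GC content of 57.4%, against 49.2% over all genes tested and 48.1% for those that passed lower.

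The share of genes that passed was highest near the β-globin locus. Leaving out the globin genes, 89 genes tested lie within 10 Mb of Hbb-bs, and 18 of them (20.2%) passed with the block, 8 higher and 10 lower, against 2.60% of all genes. Within 5 Mb it was 17 of 53 (32.1%), from 10 to 20 Mb 0 of 56, farther away on chromosome 7 30 of 519 (5.78%), and on other chromosomes 190 of 8634 (2.20%). With the GC trend removed as well, 16 of the 89 and 0.857% of genes on other chromosomes passed. Of the 56 genes from 10 to 20 Mb, 1 had an unadjusted p under 0.05 without the block, against 24 of the 89 within 10 Mb.

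The PBS libraries, which share none with this comparison, gave the same direction for 17 of these 18 genes. PBS WT replicate 1 stood apart from every other library, with a median Spearman correlation of 0.86, and was left out where stated. Without it, 15 of the 18 had an unadjusted p under 0.05 in PBS libraries in limma. For genes on other chromosomes that passed with the block, 51 of 190 had the same direction without that library and 20 of 190 had such a p. Over all genes tested 2.10% had an unadjusted p under 0.05 in PBS libraries, and 5.33% without that library. The log2 differences after apoTf and after PBS correlated with r = 0.89 over the 89 genes and r = 0.19 over other chromosomes without that library, and with r = 0.82 and r = −0.12 with it. These are descriptions across genes, which share chromosome and libraries.

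**Figure D2:**
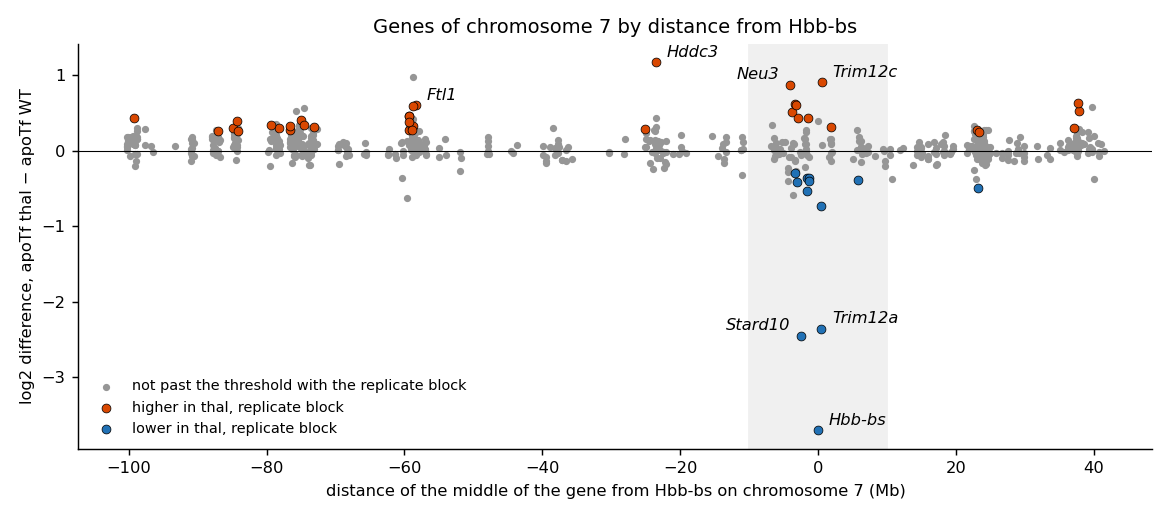
Each point is a gene tested on chromosome 7, placed by the distance of its middle from Hbb-bs (Mb) and by its log2 difference after apoTf; the grey band spans 10 Mb on each side and colours mark genes that passed with the replicate block. In the band 8 genes lie higher and 10 lower besides Hbb-bs, and none from 10 to 20 Mb away passed.

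The other 16 genes within 10 Mb that passed with the block differed by less than 1 on the log2 scale and in both directions. Neu3, a sialidase that acts on gangliosides, was at 12.3, 12.8 and 13.5 FPKM in thal and at 7.20, 5.54 and 7.77 FPKM in WT libraries, with no overlap. Its log2 difference was 0.88 (SE 0.12), and its adjusted p was 0.128 without and 0.0164 with the block. Trim12c, a paralog of Trim12a with similar sequence, went the other way from it, at 4.77, 6.08 and 4.88 FPKM in thal and 2.50, 3.01 and 2.18 FPKM in WT libraries (adjusted p = 0.148 without and 0.00605 with the block). Since only reads with 1 match were kept, how reads divide between these paralogs is uncertain.

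Rrm1, the large subunit of ribonucleotide reductase, was at 174, 188 and 177 FPKM in thal and at 236, 236 and 224 FPKM in WT libraries (log2 difference −0.37, adjusted p = 0.358 without and 0.0221 with the block). Pold3, a subunit of DNA polymerase δ, was at 52.0, 54.8 and 52.4 FPKM in thal and at 39.5, 33.5 and 38.9 FPKM in WT libraries (0.51, adjusted p = 0.250 without and 0.0221 with the block). In both genes the groups were separate. Rab6a, a small GTPase of Golgi traffic, was at 40.8, 46.3 and 42.3 FPKM in thal and at 30.6, 25.4 and 28.6 FPKM in WT libraries, also without overlap.

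Stim1, the calcium sensor of the endoplasmic reticulum, Coa4, an assembly factor of cytochrome c oxidase, Relt, a receptor of the TNF family, and Timm10b, a mitochondrial import factor, were the others higher with the block, by log2 differences of 0.43, 0.61, 0.43 and 0.31. Lower with the block were Ucp2, a mitochondrial carrier (−0.29), Rhog, a small GTPase (−0.37), Pgap2, which acts on GPI anchors (−0.53), Trim21, an intracellular antibody receptor (−0.40), Trim34a (−0.74), Fam168a (−0.42) and St5 (−0.39). Trim21 overlapped between groups, and Timm10b was the gene whose direction was opposite in PBS libraries. St5 lies 5.79 Mb from Hbb-bs and the other 17 within 5 Mb. Below the filter and chosen after their values were seen, Folr1, a folate receptor gene 1.96 Mb from Hbb-bs, was at 0, 0 and 0.017 FPKM in thal and at 0.757, 0.916 and 0.654 FPKM in WT libraries. Trim34b was at 0.395, 0.571 and 0.435 FPKM in thal and at 0, 0.013 and 0.014 FPKM in WT libraries.

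Away from the locus and the globin genes, 16 genes passed lower with the block, by 0.25 to 1.15 on the log2 scale. In PBS libraries without WT replicate 1, 12 of the 16 had the same direction and 9 an unadjusted p under 0.05, 8 of these in the same direction. Of the 207 genes that passed higher away from the locus, 47 had the same direction in those PBS libraries. Such a p was found for 14 of the 207, 10 of these in the same direction. Gpc4, a cell surface glypican on the X chromosome (52053021 to 52165252), was at 4.36, 6.56 and 5.04 FPKM in thal and at 14.4, 11.3 and 9.66 FPKM in WT libraries, a log2 difference of −1.08 (SE 0.17, adjusted p = 0.203 without and 0.0258 with the block). It stood at 4.65 ± 0.950 FPKM in thal and 12.4 ± 2.31 FPKM in WT libraries after PBS. Amigo2, Khdrbs3 and Sqrdl, chosen after their values were seen, were lower with the block by log2 differences of −0.56, −0.50 and −0.34, and had differences of −1.44, −1.21 and −0.86 after PBS. Klf3, a repressor of the Krüppel-like family, was at 16.3, 22.3 and 22.5 FPKM in thal and at 20.1, 33.5 and 32.6 FPKM in WT libraries. Its groups overlapped, each thal library was below the WT library of its number, and its log2 difference was −0.46 (adjusted p = 0.858 without and 0.0222 with the block).

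**Figure D3:**
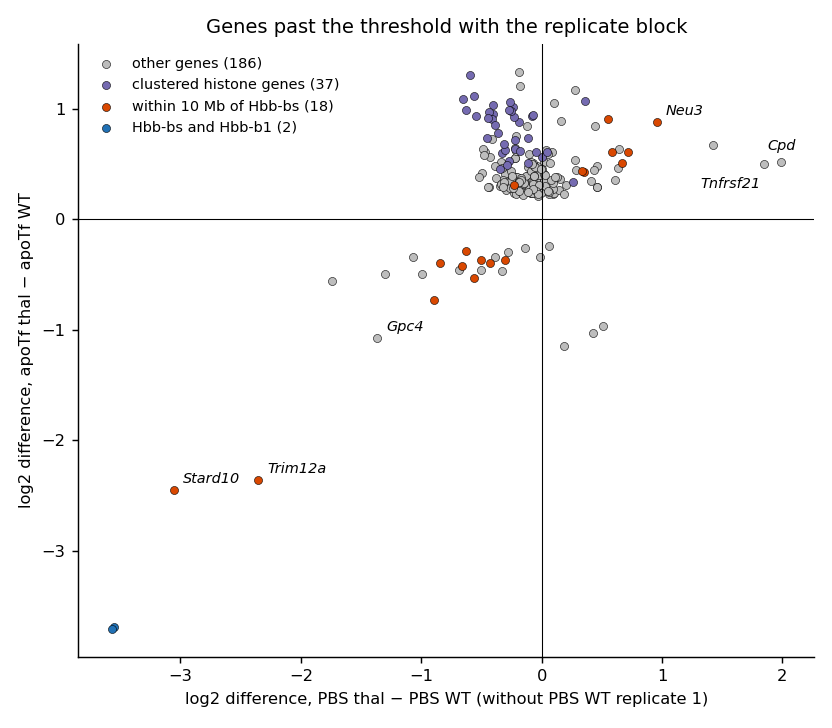
Log2 difference between thal and WT after apoTf (vertical) against that after PBS without PBS WT replicate 1 (horizontal), for the 243 genes that passed with the replicate block; these genes were chosen on the vertical axis. Genes within 10 Mb of Hbb-bs (orange) have the same sign on both axes with 1 exception, while 33 of the 37 clustered histone genes (purple) are above 0 after apoTf and below 0 after PBS.

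Clustered histone genes made up 37 of the 215 genes higher in thal Pro-E with the block. These genes supply histones during DNA synthesis, and most of their transcripts carry no poly(A) tail, so that their level in a library enriched for polyadenylated RNA also moves with that enrichment. Without the block none of 58 tested passed (56 above 0, 32 with every thal library above every WT library, against 8.72% of all genes, or 11.4% in either direction and 6.68% in PBS libraries). With the block 37 of the 58 passed, all higher, against 2.30% of all genes, and 27 with the GC trend removed as well, against 1.08% of all genes in either direction. The median log2 difference was 0.61, or 0.41 with the GC trend removed, against 0.01 over all genes tested.

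Hist1h4c, a histone H4 gene, was at 301, 309 and 386 FPKM in thal and at 134, 164 and 233 FPKM in WT libraries, with no overlap (log2 difference 0.93, SE 0.20, adjusted p = 0.329 without and 0.0120 with the block). Hist1h2bc, a histone H2B gene, was at 36.5, 33.4 and 54.4 FPKM in thal and at 11.1, 14.9 and 25.0 FPKM in WT libraries (1.31, SE 0.29, adjusted p = 0.329 without and 0.0120 with the block). In both genes replicate 3 was the highest of each group. Hist1h2ah and Hist1h4b rose with the block by 1.03 and 0.88.

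The summed FPKM of all 69 histone genes in the table was 12275, 12658 and 14913 in thal and 8178, 9481 and 12620 in WT libraries. The lowest thal value was therefore below the highest WT value. After PBS the sums were 11062 to 11898 in thal and 10246 to 17897 in WT libraries, and the median log2 difference of the list was −0.27 (−0.19 without PBS WT replicate 1). The summed FPKM of 122 small RNAs that carry no poly(A) tail, such as snoRNAs and Rpph1, the RNA of ribonuclease P, was 6268, 6886 and 6244 in thal and 3185, 2596 and 4877 in WT libraries. Rpph1 alone was at 3094, 2771 and 3121 FPKM in thal and at 1106, 753 and 2007 FPKM in WT libraries. After apoTf all thal libraries were above all WT libraries in this sum, of which Rpph1 was a large share. After PBS the groups overlapped, at 4180.5, 5094.9 and 4369.2 in thal and 7187.0, 6905.5 and 3991.9 in WT replicates 1 to 3. The histone sum was 10246 in PBS WT replicate 2 and 14050 in PBS WT replicate 3. Over the 100 small RNAs tested the median log2 difference was 0.16, with 30 below 0. With the block 4 of the 100 were higher, against 2.30% of all genes. The list of small RNAs was drawn up after the values were seen. The part of the small RNA sum in the histone difference was not tested.

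Genes of the interferon response were higher with the block in 6 of 20 tested, against 2.30% of all genes, and lower in none, with a median log2 difference of 0.28 (0.26 with the GC trend removed, when 2 of the 6 passed). Igtp, an immunity-related GTPase, was at 7.65, 8.98 and 7.33 FPKM in thal and at 5.55, 6.54 and 4.75 FPKM in WT libraries (log2 difference 0.48, adjusted p = 0.416 without and 0.0191 with the block), and its difference after PBS was 0.56. Ifitm3, a membrane protein that blocks viral entry, was at 20.3, 19.0 and 20.8 FPKM in thal and 17.1, 16.2 and 15.6 FPKM in WT libraries (0.29, adjusted p = 0.0408 with the block). In both the groups were separate. Psmb9, an immunoproteasome subunit, was also higher with the block, by 0.45. Tap1, which carries peptides to class I molecules, had a log2 difference of 0.47 and did not pass (adjusted p = 0.0570 with the block). The summed level of 10 markers of dendritic cells and MHC class II was 9.60 to 14.5 FPKM in thal and 6.71 to 10.4 FPKM in WT libraries, with 8 of the 10 under 1 FPKM in all 6. The 2 of them that were tested had a median log2 difference of 0.37, and 1 passed with the block, with or without the GC trend. That 1 is Bst2, which the interferon list also holds. The part of such cells in the interferon difference was not tested.

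A list of 20 genes of antigen presentation by MHC class I, drawn up after their values were seen, held 18 genes tested. Of these 7 were higher with the block, against 2.30% of all genes. With the GC trend removed as well 1 was higher, against 1.08% of all genes in either direction. The list also holds Psmb9 and Tap1, given above with the interferon genes, so these counts are not separate. B2m, the light chain of class I molecules, was at 506, 497 and 420 FPKM in thal and at 369, 421 and 331 FPKM in WT libraries (log2 difference 0.35). H2-D1, a class I heavy chain, was at 108, 93.5 and 86.8 FPKM in thal and at 73.4, 77.3 and 66.8 FPKM in WT libraries (0.40). The groups overlapped in B2m and were separate in H2-D1. H2-K1 and Tapbp were higher with the block by 0.39 and 0.25. The median of the list was 0.35 after apoTf and −0.09 after PBS, and strain background cannot be told apart from the deletion in these polymorphic genes.

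**Figure D4:**
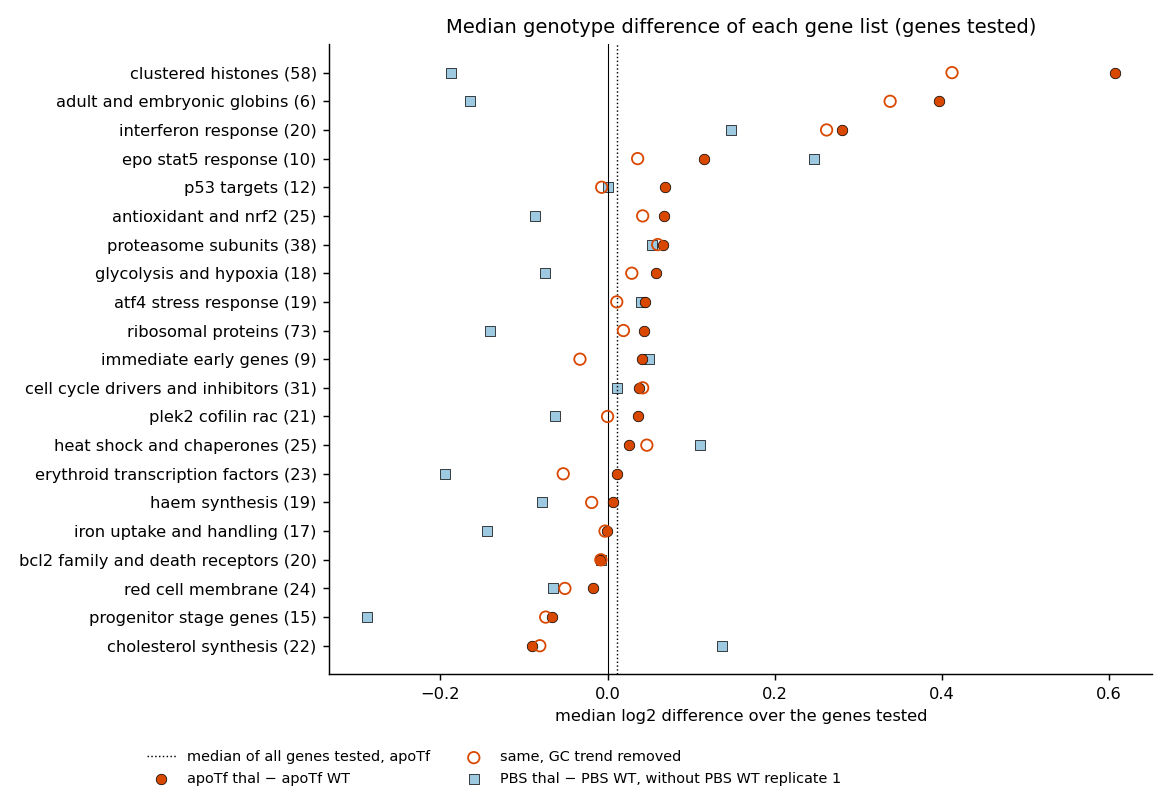
Median log2 difference between thal and WT over the genes tested in each pathway list with at least 5 of them (number in brackets), after apoTf, after apoTf with the GC trend removed, and after PBS without PBS WT replicate 1; the dotted line is the median of all genes after apoTf, 0.01. Clustered histones stand at 0.61 after apoTf and −0.19 after PBS, and cholesterol genes are the lowest of the lists shown after apoTf at −0.09.

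The list of cholesterol genes had a median log2 difference of −0.09 over 22 genes tested. The libraries were separate and lower in thal for 4 of the 22, against 2.70% of all genes. Insig1, which restrains the processing of SREBP factors, was at 3.17, 2.98 and 3.02 FPKM in thal and at 3.96, 4.20 and 3.85 FPKM in WT libraries (−0.34, adjusted p = 0.406 without and 0.0562 with the block). Msmo1, a sterol oxidase, had a log2 difference of −0.37 (adjusted p = 0.798 without and 0.0594 with the block). After PBS the median of the list was 0.31, or 0.14 without PBS WT replicate 1. Insig1 and Msmo1 had log2 differences of 0.47 and 0.70 after PBS, and neither passed in the test of the change between treatments (adjusted p = 0.762 each).

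Calls among genes of iron handling and haem synthesis were too few to set apart from the share of all genes. Ftl1, the ferritin light chain that stores iron, was the 1 of 17 iron genes that passed with the block, against 2.60% of all genes. It was at 136, 134 and 135 FPKM in thal and at 81.4, 93.6 and 91.4 FPKM in WT libraries, with no overlap (log2 difference 0.61, SE 0.09, adjusted p = 0.142 without and 0.0120 with the block). After PBS its means were 130 ± 12.2 FPKM in thal and 129 ± 18.4 FPKM in WT. Ftl1 has near-identical copies elsewhere in the genome, and its level is uncertain for that reason. The other named iron genes did not pass, with log2 differences of −0.19 for Ireb2, an iron regulatory protein, 0.17 for Tfr2, the second transferrin receptor, and −0.28 for Pcbp2, an iron chaperone.

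None of 19 genes of haem synthesis passed with or without the block, against 2.60% of all genes with it, and the median was 0.01. The libraries were separate and higher in thal for 2 of the 19 and lower for 1, against 8.72% and 2.70% of all genes. Alad, the second enzyme of the pathway, had a log2 difference of 0.24, Alas1, the first enzyme outside the red cell lineage, of −0.22, and the mitochondrial transporters Abcb6 and Slc25a39 of 0.18 and 0.21. Of 4 metallothioneins and related genes tested, chosen after their values were seen, Mt1 and Mt2, which bind zinc and copper, were higher with the block, by 0.34 and 0.33. The share of all genes higher with the block was 2.30%. With the GC trend removed as well, 1 of the 4 passed. Mt1 was at 81.5, 51.0 and 55.2 FPKM in thal and 62.1, 43.6 and 41.3 FPKM in WT libraries. The groups overlapped and each thal library was above the WT library of its number.

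Among 23 erythroid transcription factors, 3 passed higher and 1 lower with the block, against 2.30% and 0.299% of all genes, and only the lower one, Klf3, with the GC trend removed as well. Tcf3, an E protein that pairs with Tal1, was at 47.9, 44.1 and 45.3 FPKM in thal and at 36.8, 35.1 and 36.1 FPKM in WT libraries (0.34, adjusted p = 0.0191 with the block and 0.193 with the GC trend removed). Zbtb7a, a repressor of embryonic and fetal globin, and Myc, a driver of proliferation that falls as precursors mature, passed by 0.28 and 0.30. Klf1, the erythroid Krüppel-like factor, was at 138, 143 and 141 FPKM in thal and at 120, 123 and 124 FPKM in WT libraries. Its groups were separate with a log2 difference of 0.20, it did not pass, and its difference was −0.003 with the GC trend removed.

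No gene passed, with or without the block, in the lists of the red cell membrane (24 tested), cofilin and Rac signalling (21), heat shock and chaperones (25), antioxidant defence (25), p53 targets (12), immediate early genes (9) or drivers and inhibitors of the cell cycle (31). Their medians lay between −0.02 and 0.07. Of all genes, 2.60% passed with the block and 0.0534% without. In lists this small a lack of calls therefore does not set them apart from all genes. In the cell cycle list 6 of 31 genes were separate and higher in thal, against 8.72% of all genes, and the 4 with the smallest p, Aurka, Ccne2, Plk1 and Mcm5, had log2 differences of 0.15 to 0.23. Junb, an immediate early transcription factor, was at 4.54, 2.48 and 2.80 FPKM in thal and 1.89, 1.48 and 2.01 FPKM in WT libraries, and did not pass (0.69, adjusted p = 0.463 without and 0.0553 with the block).

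In the BCL2 family and death receptor list, Bad, a BH3-only death factor, and Tnfrsf21, death receptor 6, passed higher with the block among 20 tested, against 2.30% of all genes. Only Bad passed with the GC trend removed as well. Of the 20, 9 lay above 0 and 11 below, with a median log2 difference of −0.009, so the list as a whole did not shift. Bad was at 10.6, 9.32 and 9.35 FPKM in thal and at 7.59, 7.24 and 6.88 FPKM in WT libraries, with no overlap (0.40, adjusted p = 0.329 without and 0.0191 with the block). Siva1, a further death factor outside the list, was at 22.7, 22.2 and 21.8 FPKM in thal and 16.8, 16.9 and 16.5 FPKM in WT libraries (0.40, adjusted p = 0.0164 with the block). Calls in other pathway lists were all higher with the block and are to be read against the 2.30% of all genes. They were 6 of 73 ribosomal proteins, led by Rplp1 and Rplp2 at 0.56 and 0.64, 3 of 38 proteasome subunits with Psmb9 among them, 3 of 18 glycolysis and hypoxia genes (Aldoa 0.28, Pfkl 0.25, Egln2 0.27) 1 of 19 ATF4 targets (Shmt2, 0.26) and 1 of 15 progenitor genes (Myc). With the GC trend removed as well, 3 of the ribosomal genes and none in the other 4 of these lists passed.

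Plek2, Fam132b and Podxl, the genes that the study followed, did not pass or were not tested after apoTf. Plek2, which acts on the actin cytoskeleton downstream of erythropoietin, was at 1.98, 2.36 and 2.38 FPKM in thal and at 0.479, 1.98 and 1.42 FPKM in WT libraries. The groups touched between thal replicate 1 and WT replicate 2, and Plek2 did not pass (log2 difference 0.71, 95% confidence interval 0.02 to 1.40, adjusted p = 0.832 without and 0.125 with the block). Fam132b, which encodes erythroferrone, was at 2.30, 1.72 and 2.17 FPKM in thal and 1.17, 1.70 and 1.36 FPKM in WT libraries. Its groups were separate by a narrow margin, and it did not pass (0.43, 95% confidence interval 0.09 to 0.76, adjusted p = 0.651 without and 0.175 with the block). Podxl, a sialomucin of progenitors, was under the filter, at 1.56, 0.799 and 0.62 FPKM in thal and 0.286, 0.368 and 0.223 FPKM in WT libraries.

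After PBS the same genes stood farther apart, at 9.57 ± 5.09 FPKM in thal and 1.04 ± 0.315 FPKM in WT for Plek2 and at 8.99 ± 4.19 FPKM in thal and 1.49 ± 0.231 FPKM in WT for Fam132b. The change of the log2 difference between treatments was −1.88 (SE 0.55) for Plek2 and −1.73 (SE 0.39) for Fam132b, with unadjusted p of 0.00512 and 0.000817 in limma. Neither passed after adjustment over all genes (adjusted p = 0.762 each). Osm, which encodes the cytokine oncostatin M, was at 1.58 ± 0.423 FPKM in thal and 0.951 ± 0.183 FPKM in WT after apoTf and did not pass (adjusted p = 0.638 without and 0.173 with the block).

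Tnfrsf21 and Cpd, a carboxypeptidase gene chosen after its values were seen, passed with the block after apoTf. Their differences were smaller than after PBS, as were those of Plek2 and Fam132b. Tnfrsf21 was at 4.32, 3.24 and 3.40 FPKM in thal and at 2.59, 2.54 and 2.16 FPKM in WT libraries after apoTf, with no overlap (log2 difference 0.50, adjusted p = 0.391 without and 0.0417 with the block). Cpd was at 13.3, 10.0 and 9.31 FPKM in thal and at 7.95, 8.0 and 6.29 FPKM in WT libraries, also with no overlap (0.51, adjusted p = 0.459 without and 0.0290 with the block). After PBS their log2 differences were 1.84 and 2.35. The change between treatments was −1.35 (SE 0.25) for Tnfrsf21 and −1.83 (SE 0.40) for Cpd, and neither passed (adjusted p = 0.762 each).

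**Figure D5:**
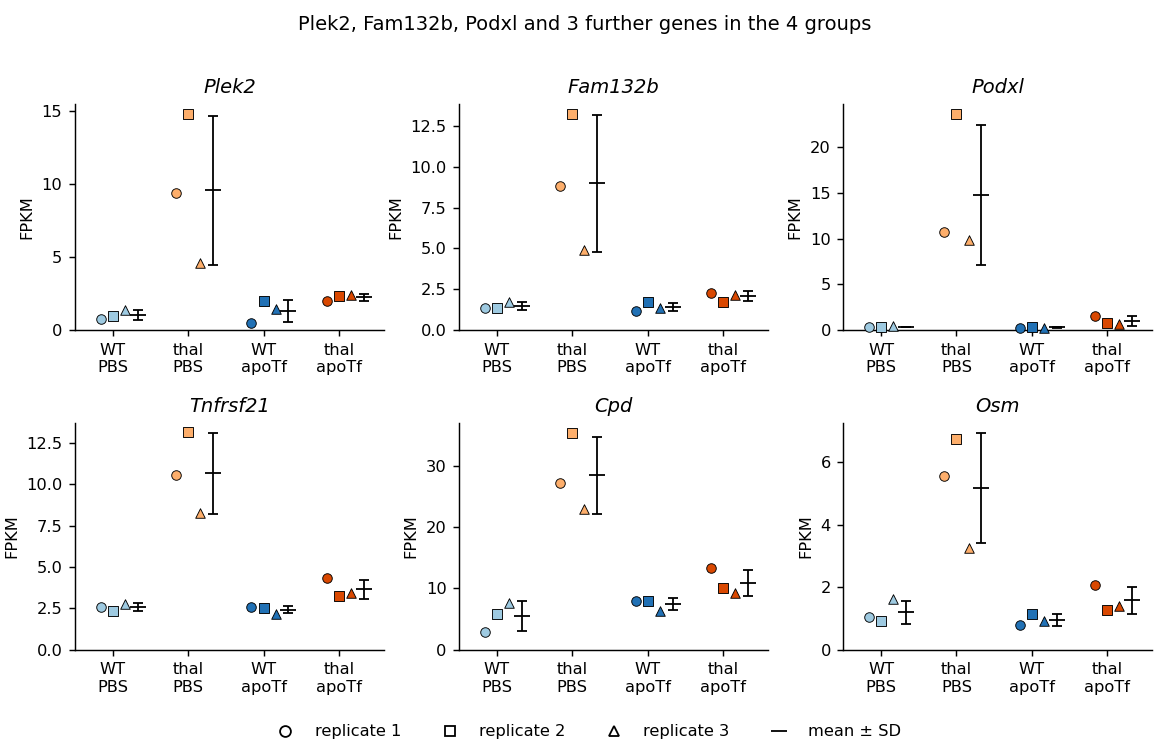
FPKM of each library in the 4 groups for Plek2, Fam132b, Podxl, Tnfrsf21, Cpd and Osm; marker shape gives the replicate number, and bars give the mean ± SD of 3 libraries. Thal libraries after PBS are above all others in each panel, and after apoTf thal and WT libraries overlap in Plek2 and are separate in the other 5.

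In limma over the PBS libraries alone, 1 of the 9361 genes (0.0107%) passed, Stard10, and 10 (0.107%) without PBS WT replicate 1. Stard10 was the 1 gene past the threshold in both comparisons. For the change of the genotype difference between treatments no gene passed, with 443 at an unadjusted p under 0.05.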

How the data were processed

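Polyadenylated RNA of sorted bone marrow Pro-E was measured in 12 libraries, and the 6 apoTf libraries enter the main comparison. STAR was used by the authors for alignment to mm10, and HOMER for counting uniquely aligned reads over exons of both strands. They deposited FPKM per library. Tool versions are not given in the sources used here. The labels also list featureCounts. Columns of the authors' own comparisons by edgeR (fold changes and p values) were not used. Counts were not analysed here. Depth was read from FPKM steps of short genes, where 90.6 to 93.6% of values came within 0.05 of whole reads, and it was not used in tests.

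Groups came from titles. Log2 of FPKM plus 0.5 was tested with limma 3.58.1 (eBayes with trend) in R 4.3.3 for genes of at least 1 FPKM in at least 3 of the 6 libraries, two-sided, with Benjamini-Hochberg adjustment over all genes and a threshold of 0.05. Python 3.11.15 was used for tables. Single values were compared with exact permutation tests. Replicate numbers come from the titles. Deviations from group means of same-numbered apoTf libraries correlated across genes with r = 0.56, 0.29 and 0.52, so the numbers were taken to pair these libraries, and the fit with a replicate block is given beside the main one. That pairing was read from the same values that were then tested, and the numbers did not pair the PBS libraries (r = −0.34, 0.40 and −0.43). Nothing in the labels says what a number shares. The p values of the main fit measure the spread between these pools of mice. Those of the block fit measure the spread of the differences within pairs. Scripts were tested on simulated data.

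The comparison and the gene lists were chosen with earlier results of these data known. Genes named are the globin genes, Plek2, Podxl and Fam132b, up to 20 genes past the threshold per direction (non-overlapping, higher mean of at least 5 FPKM), filled to 10 by the smallest p, up to 4 per list by the smallest p and any member past the threshold, and genes past it in both genotype comparisons. Of the filled genes only some are printed, and 1 gene past the threshold is not reported here. Genes named outside this rule, among them those past the threshold with the block and those of MHC class I, were chosen after their values were seen. Positions are from GENCODE on GRCm38, matched by symbol for 23504 of 24453 genes and by older symbol for 577. Alternatives were other pseudocounts, filters and scalings, no trend, all 12 libraries in 1 fit, the block, and each library left out. A loess fit on GC content, subtracted per library, and the block without each pair, were added after seeing the data.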

Additional observations from a re-analysis of the deposited data

How the results depend on the processing

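The count of 5 genes after apoTf was 3 with a filter of 5 FPKM, with median-ratio scaling and with quantile normalization, and 2 to 9 with each library left out. With the replicate block it was 243, with block and GC trend removed 101, and with the block without pairs 1, 2 and 3 it was 128, 396 and 121. It was 4 or 5 under the remaining settings. Without WT replicate 3 the 9 genes included 4 histone H4 genes and Rpph1, higher in thal. All 5 genes stayed among those called with the block. The count of 1 after PBS was 9 with the GC trend removed, 21 with all 12 libraries in 1 fit, 3 with median-ratio scaling or no filter, 0 with no trend or with the replicate block, 2 with a pseudocount of 0.1, and 0 to 10 with each library left out. Replicate numbers did not pair the PBS libraries (r = −0.34, 0.40 and −0.43). The count of 0 for the change between treatments was 1 without the filter and 0 with a library left out or with the block.

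Small log2 differences changed sign. Without WT replicate 1, Hba-a1 was −0.012, Hba-a2 −0.0032, Hspa5 0.049 and Twsg1 0.0858. Without WT replicate 3, Hsp90aa1 was −0.0154. With the GC trend removed, with or without the replicate block, Ier2 was −0.0327, Jund −0.106, Klf1 −0.0029, Myh9 −0.0005 and Twsg1 0.005. With the block and without pair 1, Ier2 was −0.0454 and Twsg1 0.0058, and without pair 2 Twsg1 was 0.0038. Without thal replicate 1, Ier2 was −0.0244, and without thal replicate 3, Twsg1 was 0.0489. With each library left out in turn, the highest or lowest values of these were 0.736 for Hba-a1, 0.75 for Hba-a2, 0.308 for Hsp90aa1, −0.208 for Hspa5, 0.291 for Ier2 and −0.128 for Twsg1. None of these had passed. The cause was not tested. The 3 libraries a group and unknown counts per gene limit what differences can be called.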
